A study of Rattus norvegicus with 13 samples.

Results

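The nuclear genes examined here control how mitochondria fuse, divide, travel and are cleared. They were *Mfn1*, *Mfn2*, *Opa1*, *Dnm1l*, *Fis1*, *Rhot1*, *Trak1*, *Trak2*, *Pink1* and *Park7*. Members were all probe sets whose single symbol in the array's annotation is one of these 10 genes. This gave 13 probe sets among 31042 that are not controls, and 10 genes among 14217 with a single symbol. *Opa1*, *Dnm1l* and *Trak2* had 2 probe sets each, and the other 7 genes had 1.

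Cortical neurons of the rat were cultured for 13 days in microfluidic platforms, devices that let axons grow into a chamber of their own, and polyadenylated RNA was measured on GeneChip arrays. Uninjured axons gave 7 arrays, drawn from 3 batches of cultures per the series' design text, which does not say which arrays belong to which batch. Regenerating axons gave 3 arrays, with the cut made at 11 days and 2 days of regrowth before harvest, and uninjured neurons of the neuronal compartment gave 3. All were kept in Neurobasal E with B27, and every array pooled 3 platforms. RNA was amplified in 2 rounds, and no strain, age or genotype is given. Apart from these batches, separate cultures are not stated for the arrays of a group, so p-values measure only the spread between these samples, which may be technical.

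Every deposited value is a ratio, not a signal level. Uninjured arrays 1 to 3 and 4 to 6 each have a row median of 1, and array 7 reads 1 in every row. The 6 other arrays thus carry only the spread within each set of 3. Any difference in level between these sets and array 7 is lost. Uninjured ranges and the spread behind the p-values may therefore be too small, and groups may seem further apart than they are. What the regenerating and neuron arrays were divided by is not given in the sources used here. Uninjured axons were assumed to be the reference, and each direction given against them depends on this assumption. With ratios alone, neither detection above background nor the order of genes by level can be read. In these pooled samples, fewer axons or cells of a type and less of a transcript in each cannot be told apart.

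Mitochondria are made near the cell body and move along axons on microtubules. The mitofusins join outer membranes, OPA1 joins inner membranes, and the dynamin-related GTPase encoded by *Dnm1l* constricts and divides the organelle. The GTPase Miro1, encoded by *Rhot1*, sits on the outer membrane and holds the TRAK adaptors, which bind kinesin and dynein. PINK1 is a kinase that accumulates on damaged mitochondria and marks them for autophagy, and the *Park7* product, DJ-1, protects against oxidative stress. *Pink1* messenger RNA is itself known to travel with mitochondria into axons.

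Neuron samples were higher than uninjured axons in 10 of the 13 probe sets, covering all of the 10 genes except *Trak2*, by 1.71-fold to 8.59-fold. Both probe sets of *Trak2* and 1 of the 2 of *Opa1* did not pass, and none passed as lower in neurons, also at an unadjusted p below 0.05 in limma. Regenerating axons differed from uninjured axons in 2 probe sets, both lower: *Park7*, by 7.29-fold, and 1 of the 2 for *Trak2*, by 4.48-fold. Over all non-control probe sets, 28.4% were called higher and 27.5% lower in neurons, and 0.335% were called lower and 0.00966% higher in regenerating axons. A call is an adjusted p below 0.05, from limma with Benjamini-Hochberg adjustment over 31042 probe sets. The median log2 difference of the 13 probe sets was 1.55 in neurons and -0.05 in regenerating axons, beside -0.07 and 0.03 over all probe sets.

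**Figure D1:**
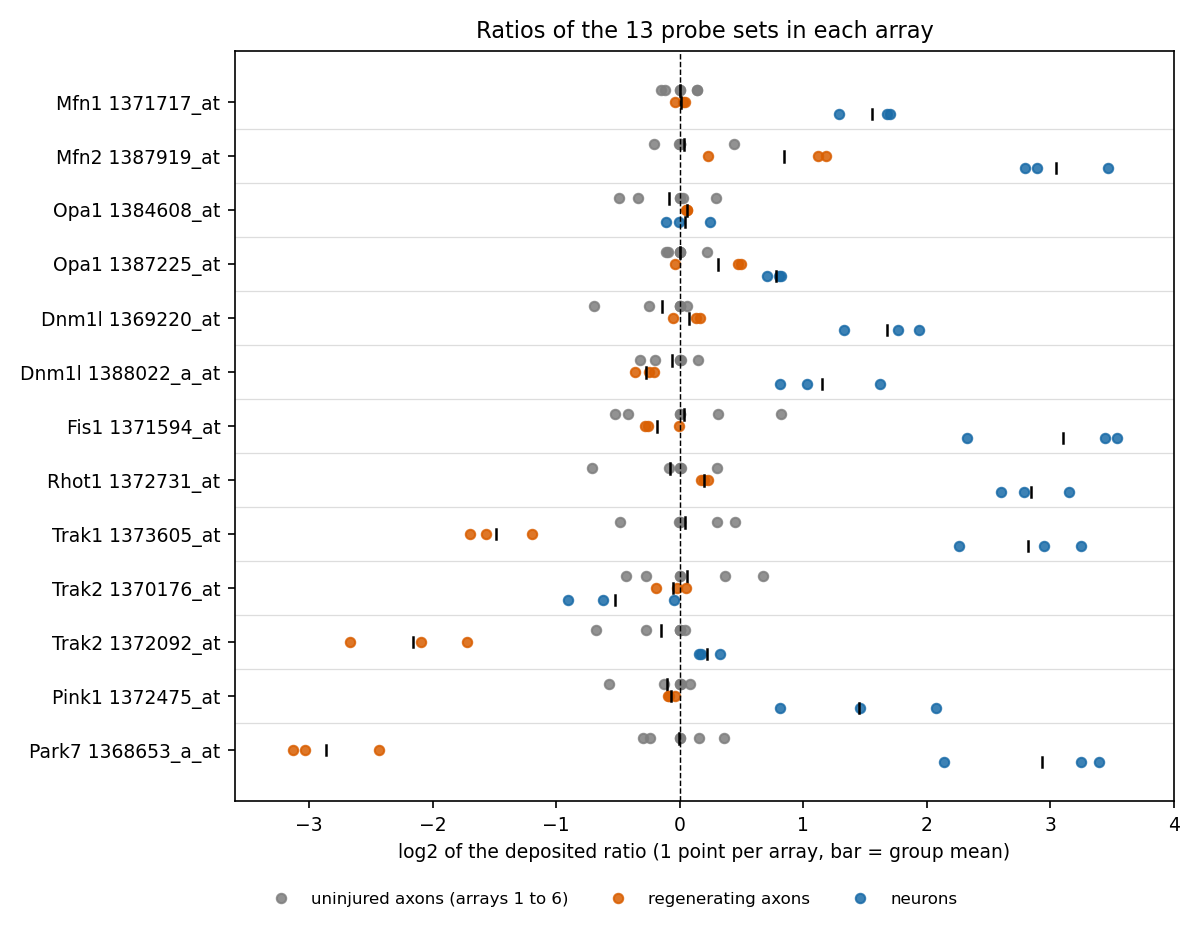
Each point is the log2 of the deposited ratio of 1 probe set in 1 array, with uninjured axons (6 arrays) in grey, regenerating axons (3) in orange and neurons (3) in blue, and a black bar at the group mean. Neuron points lie above all uninjured points in 11 of 13 rows, and the regenerating points of *Park7*, *Trak1* and the *Trak2* probe set 1372092_at lie below all uninjured points.

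Controls and cell type markers on the same arrays are given beside these values. Hybridisation controls, transcripts added to each sample in a fixed amount, had median ratios of 0.275, 0.910 and 0.157 in neuron arrays 1 to 3 and of 1.14, 1.44 and 1.57 in regenerating arrays 1 to 3. Beta-actin, read by its 3′ control probe set, stood at 38.4 to 80.1 in neurons and at 0.809 or less in regenerating axons. Its 5′ control probe set stood at 28.6 to 52.7 in neurons and at 0.796, 1.07 and 0.824 in regenerating arrays 1 to 3. Of 25 probe sets of neuronal markers, 18 were higher and 2 lower in neurons, and of 17 for astrocyte markers 11 were higher and 2 lower. Of 13 probe sets of the oligodendrocyte lineage 5 were higher and 1 lower, of 14 for fibroblasts and vessels 1 was higher and 7 lower, and of 12 for microglia none was higher and 9 were lower. The median ratio of the astrocyte markers ranged from 7.32 to 10.1 over the neuron arrays, and that of the neuronal markers from 5.13 to 9.45. Ratios give no summed level and no marker at 0. The part of these shifts in the neuronal excess was not tested.

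Of the fusion genes, both mitofusins were higher in neurons and *Opa1* was divided between its probe sets. *Mfn2* (probe set 1387919_at), which also tethers mitochondria to the endoplasmic reticulum, read 7.41, 6.92 and 11.1 in the neuron arrays, against 0.865 to 1.36 (median 1) in uninjured axons. All 3 neuron arrays lay above the 6 uninjured ones, and the difference was 8.28-fold (log2 3.05 ± 0.31, SE of the limma fit, n = 3 arrays, adjusted p = 4.85e-05). *Mfn1* (1371717_at) read 2.44, 3.25 and 3.19 in neurons and 0.900 to 1.1 (median 1) in uninjured axons. It too had no overlap, with a difference of 2.94-fold (log2 1.55 ± 0.23, adjusted p = 0.000485 in limma).

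*Opa1* encodes the inner membrane GTPase that also shapes cristae. Its probe set 1387225_at read 1.63, 1.74 and 1.77 in neurons and 0.925 to 1.17 (median 1) in uninjured axons, the smallest passing excess of the 13 (1.71-fold, log2 0.78 ± 0.19, adjusted p = 0.00762 in limma). Its other probe set, 1384608_at, read 0.996, 1.18 and 0.926 in neurons, within the uninjured range of 0.711 to 1.23 (median 1). The difference there was log2 0.04 (95% interval -0.63 to 0.72, adjusted p = 0.911 in limma). The gap between the probe sets, log2 0.73, was equalled or exceeded by 58.9% of the 3061 genes with 2 probe sets. Averaged over its probe sets, *Opa1* did not pass (log2 0.41 ± 0.21, adjusted p = 0.119 in limma over genes).

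The fission genes were higher in neurons in all 3 of their probe sets. *Fis1* (1371594_at), an outer membrane protein that can recruit the fission machinery, read 10.9, 5.01 and 11.6 in neurons. Uninjured axons ranged from 0.696 to 1.77 (median 1), the widest uninjured range of the 13 probe sets as a ratio of highest to lowest (2.54). The neuron arrays lay above it, by 8.59-fold on average (log2 3.10 ± 0.56, adjusted p = 0.00148 in limma), which was the largest mean difference of the 13, although its interval (1.85 to 4.35) overlaps those of several other members.

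*Dnm1l*, which encodes the fission GTPase DRP1, read 3.40, 2.51 and 3.84 in neurons with probe set 1369220_at and 2.05, 1.75 and 3.07 with 1388022_a_at. Uninjured axons ranged from 0.619 to 1.04 and from 0.801 to 1.11, both with a median of 1, so neither probe set overlapped between the groups. The differences were 3.20-fold (log2 1.68 ± 0.32, adjusted p = 0.00214 in limma) and 2.23-fold (1.15 ± 0.30, adjusted p = 0.0100). Both probe sets of *Dnm1l* thus had the same direction, with a gap of log2 0.52 between them.

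Transport genes held both large and small differences. *Rhot1* (1372731_at) read 6.91, 6.06 and 8.89 in neurons and 0.610 to 1.23 (median 1) in uninjured axons, without overlap, a difference of 7.19-fold (log2 2.85 ± 0.35, adjusted p = 0.000167 in limma). *Trak1* (1373605_at), whose product is the main TRAK adaptor for entry of mitochondria into axons, read 7.73, 4.78 and 9.49 in neurons. Its uninjured arrays ranged from 0.716 to 1.37 (median 1), and the difference was 7.05-fold (log2 2.82 ± 0.41, adjusted p = 0.000417 in limma).

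*Trak2*, whose product acts largely in dendrites, did not pass in neurons with either probe set. Probe set 1370176_at read 0.651, 0.533 and 0.968 in neurons and 0.739 to 1.6 (median 1) in uninjured axons, and the groups overlapped (log2 -0.52, 95% interval -1.51 to 0.46, adjusted p = 0.328 in limma). It passed as lower when the reference was taken as free of error (adjusted p = 0.0490). Probe set 1372092_at read 1.11, 1.13 and 1.25 in neurons, just above the uninjured range of 0.626 to 1.03 (median 1), and did not pass either (log2 0.22, -0.41 to 0.85, adjusted p = 0.526). The interval of each *Trak2* probe set lies below that of *Trak1* (1.91 to 3.73), while the difference between the genes was not tested.

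The quality control genes were both higher in neurons. *Park7* (1368653_a_at) read 9.52, 4.41 and 10.5 in neurons and 0.812 to 1.28 (median 1) in uninjured axons, a difference of 7.62-fold without overlap (log2 2.93 ± 0.44, adjusted p = 0.000553 in limma). *Pink1* (1372475_at) read 2.74, 1.76 and 4.22 in neurons and 0.673 to 1.06 (median 1) in uninjured axons. Its neuron arrays had an SD of 0.63 on the log2 scale, beside 0.69 for *Park7*, 0.67 for *Fis1* and 0.23 for *Mfn1*. The difference for *Pink1* was 2.73-fold (log2 1.45 ± 0.42, adjusted p = 0.0147 in limma).

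Without overlap, all 3 neuron arrays lay above all 6 uninjured arrays in 11 of the 13 probe sets and below them in none, beside 33.1% and 36.8% of all probe sets. Neuron array 2 was the lowest of the 3 in 8 of the 10 probe sets that were higher in neurons, beside 71.0% of all probe sets that were. Without that array the same 10 probe sets passed, as they did without either of the others.

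**Figure D2:**
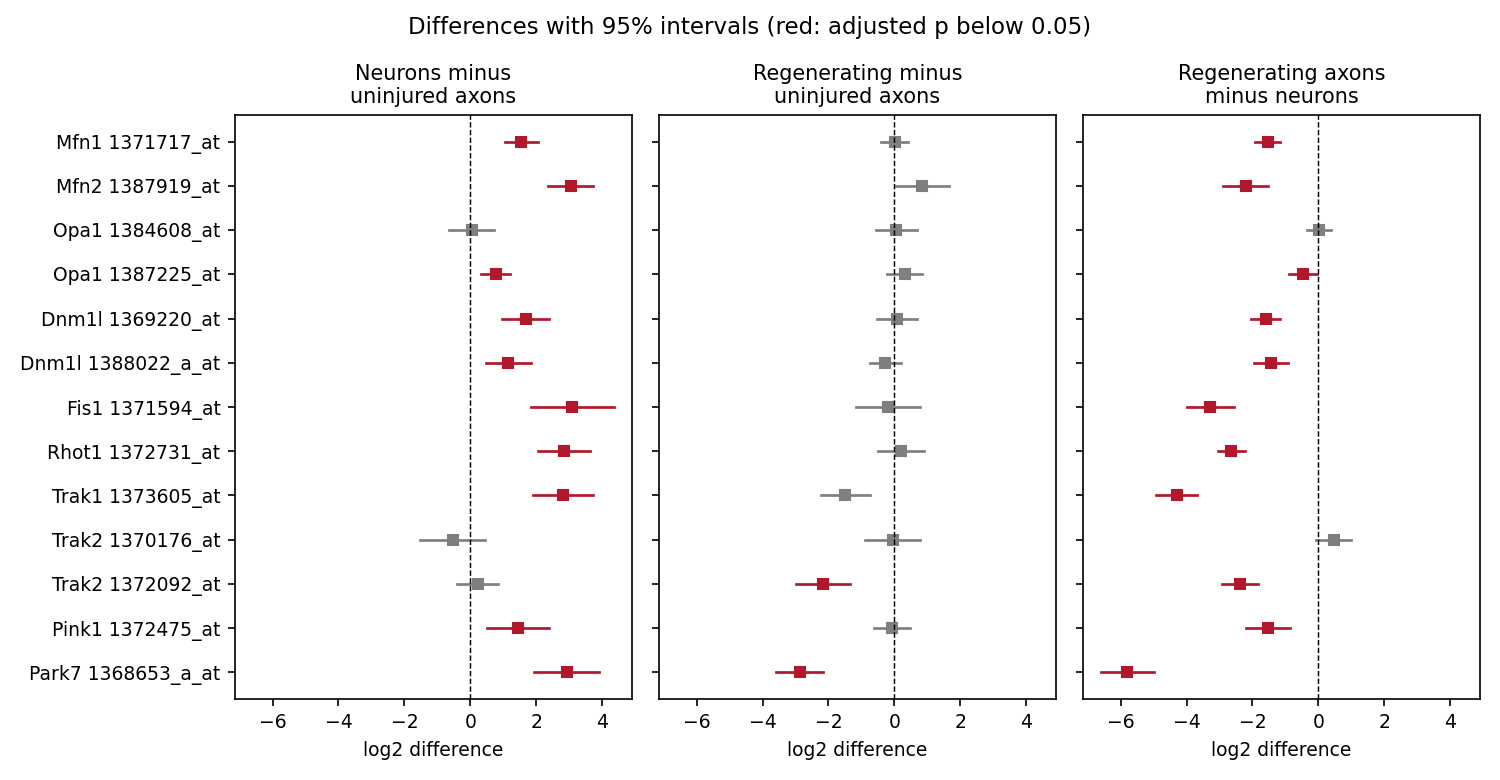
Squares are log2 differences from the limma fits for neurons minus uninjured axons, regenerating minus uninjured axons and regenerating axons minus neurons, with 95% intervals as lines and differences with an adjusted p below 0.05 in red. In the middle panel *Park7* (-2.87) and *Trak2* 1372092_at (-2.16) are red, while *Trak1* (-1.49) and *Mfn2* (0.84) lie away from 0 without passing.

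Axons that had regrown for 2 days after axotomy were compared with uninjured axons to ask how the axonal transcripts of these genes differ after injury. *Park7* read 0.185, 0.114 and 0.122 in the regenerating arrays, below the lowest uninjured array (0.812) in each. It was 7.29-fold lower (log2 -2.87 ± 0.32, adjusted p = 0.0146 in limma), and 257 of the 31042 probe sets lay further down. *Trak2* probe set 1372092_at read 0.303, 0.157 and 0.234, also below all uninjured arrays (lowest 0.626), and was 4.48-fold lower (log2 -2.16 ± 0.37, adjusted p = 0.0485). Its other probe set, 1370176_at, read 1.04, 0.985 and 0.876 and did not pass (log2 -0.05, 95% interval -0.89 to 0.78, adjusted p = 0.987).

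The gap between the *Trak2* probe sets, log2 2.11 in regenerating axons, was equalled or exceeded by 2.03% of genes with 2 probe sets. Which transcripts each of them reads is not given in the sources used here. Averaged over both, *Trak2* did not pass (log2 -1.11 ± 0.32, adjusted p = 0.151 in limma over genes). *Trak1* read 0.337, 0.309 and 0.437 in regenerating axons, below all uninjured arrays (lowest 0.716), at log2 -1.49 ± 0.33, and did not pass (adjusted p = 0.107). These 3 probe sets, *Park7*, *Trak1* and *Trak2* 1372092_at, were the only ones of the 13 whose regenerating arrays did not overlap the uninjured ones, beside 10.9% of all probe sets lying below and 10.3% above.

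Both calls depended on single arrays. Without regenerating array 2 the adjusted p in limma was 0.0594 for *Park7* and 0.115 for *Trak2* 1372092_at, and without array 3 it was 0.0592 and 0.129. *Trak2* also lost its call without uninjured array 2, 3, 5 or 6 (adjusted p 0.0504 to 0.0875), and *Trak1* passed without uninjured array 4 (adjusted p = 0.0492). The values themselves moved little: -2.73 and -2.78 for *Park7* without regenerating arrays 2 and 3. The error of the reference, set to that of 1 array, was assigned and not measured.

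Other values were low in the same arrays. GAPDH, read by its 3′ control probe set, stood at 0.355, 0.159 and 0.142 in regenerating arrays 1 to 3, and at 0.62 or more in uninjured axons. Its 5′ control probe set stood at 0.495, 0.35 and 0.25, and at 0.599 or more in uninjured axons. The median ratio of the neuronal markers was 0.726, 0.702 and 0.577, and 9 of their 25 probe sets were lower at an unadjusted p below 0.05 (6.89% of all probe sets were), with none called after adjustment in limma. That of the astrocyte markers was 0.882, 0.979 and 0.886, with none of their 17 probe sets lower at an unadjusted p below 0.05. Oligodendrocyte lineage markers stood at 0.829, 0.947 and 0.864, with 2 of 13 probe sets lower at that limit in limma. Microglial markers stood at 1.27, 1.17 and 1.23, with 1 of 12 higher and none lower. Fibroblast and vessel markers stood at 0.999, 0.969 and 1.02, with 2 of 14 lower and 1 higher. The part of these shifts in the values of *Park7*, *Trak1* and *Trak2* was not tested.

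At an unadjusted p below 0.05 in limma, 3 of the 13 probe sets were lower in regenerating axons, beside 6.89% of all probe sets. *Mfn2* was the only one of the 13 to lie higher at that limit, beside 3.97% of all, and it did not pass after adjustment. It read 1.17, 2.27 and 2.17 in regenerating axons, so arrays 2 and 3 lay above all uninjured arrays (highest 1.36) and array 1 within them. The difference was log2 0.84 ± 0.36 (adjusted p = 0.425 in limma), and 214 of the 31042 probe sets lay further up. *Opa1* probe set 1387225_at also had its lowest value in array 1, at 0.971, 1.39 and 1.41 (log2 0.31 ± 0.24, adjusted p = 0.743). The uninjured range for it was 0.925 to 1.17, so here too array 1 lay within the uninjured range and arrays 2 and 3 above it.

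The remaining 8 probe sets stayed within log2 0.27 of the reference in regenerating axons. *Pink1* read 0.935, 0.943 and 0.972, with a difference of log2 -0.07 (95% interval -0.62 to 0.47, adjusted p = 0.963 in limma). *Mfn1* read 1.02, 0.976 and 1.03 (0.01, -0.40 to 0.43), and *Opa1* probe set 1384608_at read 1.04 in all 3 arrays (0.06, -0.56 to 0.68). For these probe sets the intervals leave room for differences of about the size of the bounds.

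Of the fission genes, *Fis1* read 0.995, 0.836 and 0.825 in regenerating axons (log2 -0.18, 95% interval -1.15 to 0.79). *Dnm1l* read 0.962, 1.09 and 1.12 with 1369220_at (0.08, -0.54 to 0.70) and 0.842, 0.778 and 0.866 with 1388022_a_at (-0.27, -0.73 to 0.19). *Rhot1* read 1.13, 1.17 and 1.15 (0.20, -0.50 to 0.90), between the uninjured extremes of 0.610 and 1.23.

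The stretches before the annotated starts are shown for *Park7*, *Trak1* and *Trak2*, which hold the 3 probe sets that lay below all uninjured arrays (for *Trak2*, 1 of 2), and for *Pink1*, whose probe set did not. They are 250 bases from RefSeq on build GRCr8, 5′ to 3′ on the strand of the gene: *Park7* chr5:166659826-166660075 (minus), *Trak1* chr8:129924558-129924807 (plus), *Trak2* chr9:67908159-67908408 (minus) and *Pink1* chr5:155825951-155826200 (minus). *Park7* has 3 listed starts, and the one at the outer end of the gene was used. The windows of *Park7* and *Pink1* lie just outside the annotated gene. Those of *Trak1* and *Trak2* lie before an internal start, within the annotated gene (chr8:129861967-130016870 and chr9:67842680-67909786). Capitals mark matches to CACGTG, the E-box core bound by lysosome and autophagy regulators among others.
Park7: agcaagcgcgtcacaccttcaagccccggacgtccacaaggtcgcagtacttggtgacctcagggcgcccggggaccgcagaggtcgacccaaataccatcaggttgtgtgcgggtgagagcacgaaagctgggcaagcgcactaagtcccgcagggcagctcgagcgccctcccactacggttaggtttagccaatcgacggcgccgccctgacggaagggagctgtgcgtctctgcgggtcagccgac
Trak1: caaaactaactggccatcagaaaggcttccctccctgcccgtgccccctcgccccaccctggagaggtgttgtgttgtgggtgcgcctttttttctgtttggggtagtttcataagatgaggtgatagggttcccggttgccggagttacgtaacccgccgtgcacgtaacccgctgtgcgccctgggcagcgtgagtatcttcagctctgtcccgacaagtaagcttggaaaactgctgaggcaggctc
Trak2: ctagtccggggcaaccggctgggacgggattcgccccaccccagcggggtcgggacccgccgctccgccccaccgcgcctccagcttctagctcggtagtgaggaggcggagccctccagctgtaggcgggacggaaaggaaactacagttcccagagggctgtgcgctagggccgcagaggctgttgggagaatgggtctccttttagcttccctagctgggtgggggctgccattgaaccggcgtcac
Pink1: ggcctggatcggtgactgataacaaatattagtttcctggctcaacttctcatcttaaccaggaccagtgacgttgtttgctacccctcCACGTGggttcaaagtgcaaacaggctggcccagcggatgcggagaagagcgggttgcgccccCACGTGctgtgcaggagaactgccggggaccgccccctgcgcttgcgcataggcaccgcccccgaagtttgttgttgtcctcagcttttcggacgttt

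Both strands were searched for CACGTG, for the ETS core CCGGAAG and for the palindromic site of nuclear respiratory factor 1. No match of one motif overlapped a match of another in these genes. CACGTG occurs 2 times before *Pink1* and in 5.59% of 33469 such windows of all genes, and CCGGAAG occurs before *Mfn1* and *Rhot1* and in 7.27% of all. The site of nuclear respiratory factor 1 occurs in 0.762% of all and in no window of the 9 members found. *Mfn2* was not among them. *Park7*, *Trak1* and *Trak2* hold none of the 3 motifs in these windows. Their windows have 64.4%, 57.2% and 67.2% G or C, that of *Pink1* has 57.6%, and the median of all windows is 51.2%. A match is a stretch of letters, and binding was not measured.

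Regenerating axons and neurons were set against each other in a 2-group fit, which needs no uninjured array if both were divided by the same reference. That is not stated in the labels. Regenerating axons were lower in 11 of the 13 probe sets and higher in none, also at an unadjusted p below 0.05, beside 35.2% and 37.3% of all probe sets in limma. The arrays did not overlap in the same direction in 11 of 13, beside 36.9% of all below and 40.4% above. *Park7* was 55.6-fold lower (log2 -5.80 ± 0.35, adjusted p = 2.90e-06) and *Trak1* 19.8-fold lower (-4.30 ± 0.27, adjusted p = 3.69e-06). For *Park7*, 259 of the 31042 probe sets lay further down.

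*Fis1* was 9.74-fold lower in regenerating axons than in neurons (log2 -3.28 ± 0.31), *Rhot1* 6.26-fold (-2.65 ± 0.18), *Trak2* 1372092_at 5.21-fold (-2.38 ± 0.24) and *Mfn2* 4.62-fold (-2.21 ± 0.30). Quantile normalization of both groups together ended the call for *Mfn2* and turned its sign (log2 0.52, adjusted p = 0.541 in limma), and it moved *Rhot1* to -1.23 and *Fis1* to -2.22, which both still passed. *Mfn1* (-1.54 ± 0.17), *Pink1* (-1.52 ± 0.29) and both probe sets of *Dnm1l* (-1.60 ± 0.19 and -1.43 ± 0.22) were lower by 2.69-fold to 3.03-fold, and passed under quantile normalization at log2 -0.90 to -1.25. *Opa1* 1387225_at passed narrowly (-0.47 ± 0.19, adjusted p = 0.0496 in limma) and lost its call without regenerating array 1 or 2 or without any 1 of the 3 neuron arrays (adjusted p 0.0570 to 0.163), and its sign turned under quantile normalization (0.44, adjusted p = 0.440). *Opa1* 1384608_at (0.02, 95% interval -0.35 to 0.38) and *Trak2* 1370176_at (0.47, -0.06 to 1) did not pass; the latter passed as higher in regenerating axons without neuron array 3 (adjusted p = 0.0114).

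Other genes of the same roles were counted from 4 lists, without the 10 genes themselves. Of 98 probe sets of 59 measured genes, 50 were higher and 8 lower in neurons (median log2 1.19), beside 28.4% and 27.5% of all probe sets. Among genes of fusion and inner membrane shape, 12 of 21 probe sets were higher and none lower (median 1.84), also at an unadjusted p below 0.05 in limma. *Slc25a46*, an outer membrane protein that interacts with the fusion machinery, was 13.5-fold higher with 1382150_at (log2 3.75 ± 0.45) and 5.32-fold with 1386088_at (2.41 ± 0.43). *Yme1l1*, a protease that cleaves OPA1, was 8.20-fold higher with 1375841_at (3.04 ± 0.32), and its other probe sets were 2.44-fold to 7.89-fold higher. Mitophagy and quality genes were higher in 21 of 36 probe sets and lower in 4 (median 1.71). The outer membrane channel gene *Vdac1* was 24.1-fold higher with 1386909_a_at (4.59 ± 0.33) and 3.28-fold higher with 1367706_at (1.71 ± 0.65).

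Fission genes were higher in 7 of 19 probe sets and lower in 2 (median 0.33), and transport and anchoring genes in 10 and 2 of 22 (median 0.79). *Mtfr1l* was 14.3-fold higher in neurons with 1371461_at (log2 3.84 ± 0.49), while its other probe set, 1385293_at, did not pass (-0.47 ± 0.25, adjusted p = 0.135 in limma). *Armcx2*, of a family that includes mitochondrial transport proteins, was 21.3-fold higher (4.42 ± 0.41) and *Kifbp*, which encodes a kinesin-binding protein, 13.1-fold (3.72 ± 0.32). The lower probe sets in neurons included that of *Mief1* (-0.96 ± 0.21), which encodes a receptor for DRP1, and 1 of 3 for the kinesin heavy chain gene *Kif5c* (1395997_at, -1.71 ± 0.44). Adjusted p-values of the called probe sets named from the lists lay between 5.06e-06 and 0.0457 in limma.

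In neurons 5 of the 59 genes were called in both directions by different probe sets: *Mff*, *Sqstm1*, *Ranbp2*, *Atg5* and *Fkbp8*. *Mff*, a receptor for DRP1, was 26.9-fold higher in neurons with 1371941_at (log2 4.75 ± 0.66) and 2.68-fold lower with 1384003_at (-1.42 ± 0.20). *Sqstm1*, the autophagy adaptor p62, was 23.0-fold higher with 1371353_at (4.52 ± 0.29) and 2.65-fold lower with 1371220_at (-1.41 ± 0.36), and its other 2 probe sets were also called, 1 each way. *Ranbp2*, a nuclear pore gene, was lower with 1396801_at (-1.56 ± 0.48) and higher with 1383172_at (2.90 ± 0.28) and 1375371_at (1.41 ± 0.43). *Atg5*, an autophagy gene, was lower with 1396878_at (-1.33 ± 0.32) and higher with 1385526_at (1.33 ± 0.21). Over all genes with more than 1 probe set, 539 of 4525 (11.9%) were called in both directions in this comparison. None of the 3 members with 2 probe sets was. The 59 genes include some with only 1 probe set, which cannot be called both ways, so 5 of 59 is not comparable with 11.9%.

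In regenerating axons none of the 98 probe sets passed in limma. At an unadjusted p below 0.05, 14 were lower and 2 higher, beside 6.89% and 3.97% of all probe sets, with medians of the 4 lists between log2 -0.05 and 0.00. The following were named after their values were seen. *Vdac2* (-1.66 ± 0.33, adjusted p = 0.0757), an outer membrane channel, was nearest to the threshold, followed by *Miga1* (-1.76 ± 0.38, adjusted p = 0.103). The largest falls had larger errors: *Kif5c* 1380172_at (-3.85 ± 1.77, adjusted p = 0.476 in limma), *Kif5b* 1372444_at (-3.82 ± 1.14, 0.205) and *Chchd3* (-3.49 ± 0.87, 0.137). Other probe sets of *Kif5c* stood at -1.49 and 0.14, and that of *Kif5b* at -0.55. The largest rise was that of *Yme1l1* 1394059_s_at (1.03 ± 0.27, adjusted p = 0.15), with its other probe sets at -0.27 to 0.00. *Rhot2*, which encodes Miro2 and is the paralog of *Rhot1*, was at 0.18 ± 0.21 (adjusted p = 0.853), while in neurons it was 3.22-fold higher (1.69 ± 0.21, adjusted p = 0.000177).

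**Figure D3:**
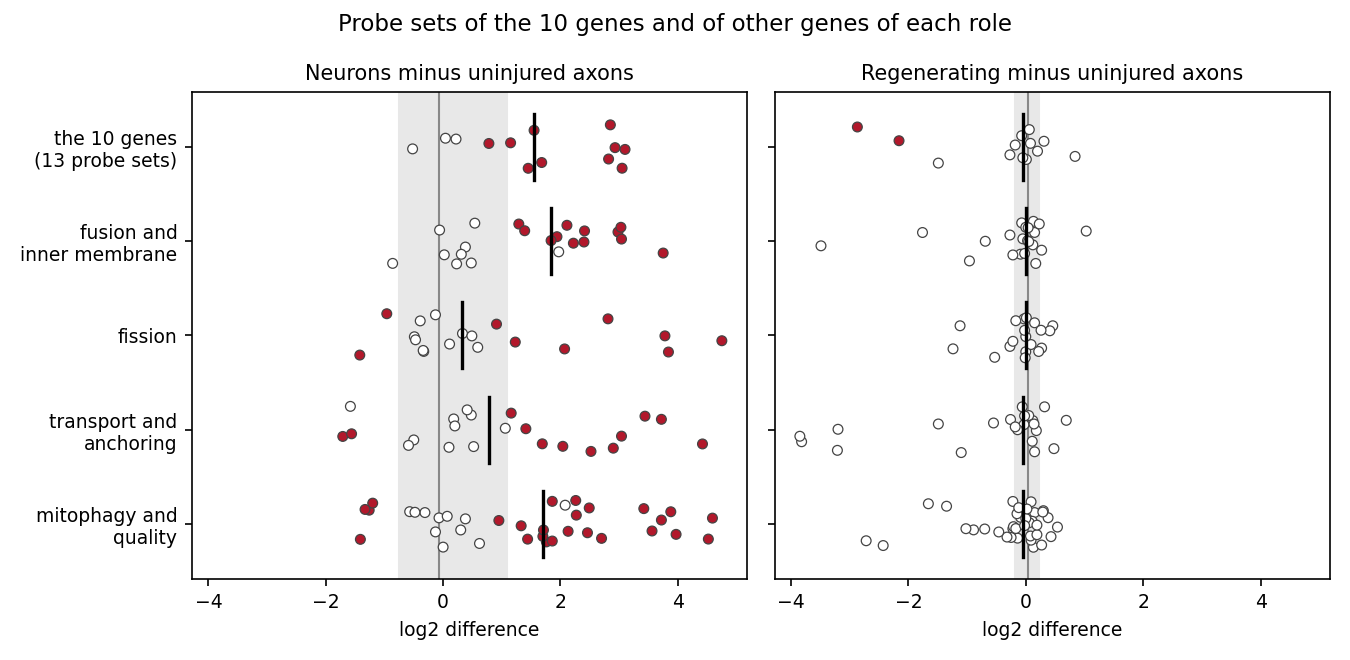
Each circle is the log2 difference of 1 probe set, filled red at an adjusted p below 0.05, for the 10 genes and for other genes of each role, with a black bar at the median of each row. The grey band spans the middle 50% of all probe sets and the grey line is their median (-0.07 on the left, 0.03 on the right). On the right, only *Park7* and 1 probe set of *Trak2* are red.

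By Euclidean distance over the 6 regenerating and neuron arrays on the log2 scale, the probe set nearest to *Park7* among 20825 of other genes was that of *Sod1* (distance 0.69). *Sod1* read 0.252, 0.116 and 0.120 in regenerating axons and 7.62, 5.76 and 9.46 in neurons. Each nearest probe set was picked by these same 6 arrays, so its likeness to the member follows from the choice. Nearest to *Trak1* was *Pmm1* (0.20), to *Trak2* 1372092_at *Kgd4* (0.59) and to *Mfn2* *Txnl1* (0.55). *Txnl1*, picked in the same way, read 0.954, 2.11 and 1.96 in the regenerating arrays. For the other 9 probe sets the nearest lay at 0.07 to 0.30, among them *Drosha* for *Rhot1* (0.17), *Erg28* for *Fis1* (0.27), *Erp44* for *Pink1* (0.15) and *Prr12* for *Mfn1* (0.15).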

How the data were processed

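Ratios of 31099 probe sets on 13 arrays were used as deposited. The submitters' processing notes name RMA without version or settings; the step from signals to ratios is not given in the sources used here. Per the labels' protocols RNA was amplified in 2 rounds, and scanner files were not used here. Gene symbols came from the platform annotation and were checked by gene identifier against the GRCr8 table (20758 matched; 20826 probe sets with 1 symbol, 436 with several, 9780 with none; no symbol changed). The log2 ratios were fitted with limma 3.58.1 (lmFit, eBayes; R 4.3.3) per probe set, without the 57 controls. Against uninjured axons, the spread was pooled from the 3 arrays of the group and from uninjured arrays 1 to 3 and 4 to 6 about their own means, and array 7 stood for the reference with the error of 1 array. Regenerating axons and neurons were compared by a 2-group fit. The code was tested on simulated data. Intervals are 95% and cover the fit's error only. The number of arrays limits the precision. Named genes were all 13 probe sets, up to 2 largest called rises and falls of each of 4 role lists in both comparisons with uninjured axons, and the nearest probe set of another gene; Phb1, Senp5, Disc1, Myo19 and 6 mitophagy genes had no probe set with a single symbol. Genes, lists and tests were chosen with earlier results of these data known. Alternatives were another scaling, quantile normalization, a pseudocount, other feature sets, robust eBayes, other treatments of the reference, a replicate block and leaving out arrays.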

Additional observations from a re-analysis of the deposited data

Results flagged for a closer look

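Among the 6 measured uninjured arrays, 3 of the 13 probe sets had 1 array far from the others, by Dixon's criterion at the 95% level on the log2 scale. For *Pink1* uninjured array 4 read 0.673, with the next at 0.915. For *Mfn2* array 6 read 1.36, with the next at 1, and for *Opa1* 1387225_at array 5 read 1.17, with the next at 1. Chance flags about 1 in 20 groups of independent values; here each set of 3 arrays is divided by its own median, and 18.9% of all non-control probe sets passed the criterion.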

How the results depend on the processing

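Of the alternatives other than leaving out arrays, all but 1 kept the 13 probe sets' direction where it had been called. The exception was quantile normalization over regenerating and neuron arrays together, which forces both groups onto 1 distribution. There *Mfn2* moved to log2 0.52 (adjusted p = 0.541 in limma) and *Opa1* 1387225_at to 0.44 (adjusted p = 0.440). Against uninjured axons, quantile normalization covered only the 3 arrays of the group, so it could hardly move their mean difference from the reference. In neurons 10 of 13 probe sets passed, and 8 of 10 when tested per gene; the count was 10 without each array in turn, and 11 with the reference free of error, which added *Trak2* 1370176_at as lower (adjusted p = 0.0490). In regenerating axons, the count of 2 became 1 per gene (*Park7*), and 4 with the reference free of error or with a plain 2-group fit against 6 uninjured arrays, which added *Trak1* and *Mfn2*. Leaving out 1 array gave 0 to 3. Over all probe sets, 3539 were then higher and 3707 lower with the reference free of error, and 2298 and 2924 in the plain fit, beside 3 and 104. Without 1 array, these counts were 0 to 17 higher and 0 to 462 lower, fewest without regenerating array 3 and most without regenerating array 1; quantile normalization gave 5 and 227. Regenerating axons against neurons gave 9 to 11 calls. There, all probe sets split into 11568 higher and 10930 lower, and with a single symbol into 6399 and 8660; in neurons 8820 and 8523 became 7121 and 4526. With the replicate number as a block, 11 probe sets passed in neurons (*Trak2* 1370176_at added, log2 -0.55, adjusted p = 0.0397 in limma), 3 in regenerating axons (*Trak1* added) and 10 between these groups (*Opa1* 1387225_at lost, adjusted p = 0.0558); over all probe sets 68 were higher and 600 lower in regenerating axons. The numbers are not known to pair samples: deviations of same-numbered regenerating and neuron arrays correlated at r = 0.131, 0.123 and -0.09 over probe sets. The cause of these differences was not tested. Uninjured array 7 holds no measurement and was not left out.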
